A study of Mus musculus with 40 samples.

Results

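Choline enters 3 connected routes in liver, and the 9 genes described here encode enzymes and a carrier of these routes. The carrier Slc44a1 takes choline into cells and mitochondria. Chka phosphorylates choline, Pcyt1a turns phosphocholine into CDP-choline, the step that usually sets the rate of this route, and Chpt1 joins CDP-choline to diacylglycerol to give phosphatidylcholine. Pemt, a liver enzyme, makes phosphatidylcholine by another route, methylating phosphatidylethanolamine with S-adenosylmethionine. In mitochondria, Chdh oxidises choline to betaine aldehyde, and Aldh7a1 oxidises betaine aldehyde to betaine, besides its part in lysine breakdown. Betaine gives a methyl group to homocysteine and becomes dimethylglycine, which Dmgdh demethylates to sarcosine, and Sardh demethylates sarcosine to glycine. Both demethylases hand a carbon unit to tetrahydrofolate, so these steps meet the folate cycle. The genes were chosen by name, and all 9 were found among the 20593 genes of the deposited table.

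The samples were whole livers of C57BL/6 mouse fetuses at gestational day 18.5, with 1 library of polyadenylated RNA per sample. Their dams ate 1 of 4 diets for 13 weeks before breeding and through pregnancy: WDF with 45% of energy as fat and 10 mg/kg folic acid, WD with 45% fat and 2 mg/kg, CDF with 10% fat and 10 mg/kg, or CD with 10% fat and 2 mg/kg. The submitters use the 45% fat diet as a model of gestational diabetes. Each diet has 5 female and 5 male libraries, 40 in all, and all fetuses share strain and age. Dam and litter are not labelled, so fetuses may be littermates and each p-value rests on the spread among these libraries. CDF female 5 and CD female 4 were left out of all comparisons, as the rule for the members asks, and their markers go against the liver label: 12 hepatocyte markers summed to 16776 and 24295 normalized counts in these libraries, against 2453170 to 3763810 in the other 38, and 12 lung markers to 115594 and 179399. Lung markers summed to 247 to 43545 in the 38 libraries, with the highest sums in CD female 5 (43545) and CDF female 4 (30350). The normalized counts of a library summed to about 15002000 to 27817200 over the 38, with a median of 17006400. Because these are bulk samples, fewer cells of a type and less RNA per cell cannot be told apart.

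No diet, folic acid or sex comparison changed any of the 9 genes at an adjusted p under 0.05 in limma with equal weight for all libraries. With estimated library weights 3 genes passed: Slc44a1 in WDF against CDF males (-0.64, adjusted p = 0.0178) and for high against control fat (-0.36, adjusted p = 0.00464), Sardh in WDF against WD males (0.51, adjusted p = 0.0461) and Chpt1 for high against control fat (-0.31, adjusted p = 0.0484), as log2 differences. The same weights called 241 of 15377 genes tested for WDF against CDF males, 621 for WDF against WD males and 486 for fat. With equal weights these counts were 0, 0 and 7. Pemt spanned 9.64-fold and Chdh 6.53-fold between the lowest and the highest of 38 livers, and single genes moved in opposite directions from liver to liver. Pemt and Sardh were high in the same livers. Pcyt1a, Chdh, Slc44a1, Aldh7a1 and Dmgdh formed a second set, of which all but Dmgdh correlated negatively with Pemt by Pearson's r. By rank, Slc44a1 (rho = -0.34, adjusted permutation p = 0.0615) and Aldh7a1 (rho = -0.31, adjusted permutation p = 0.0827) did not pass with Pemt. With a library-wide transcript length score removed, the correlation with Pemt was -0.39 for Pcyt1a, -0.26 for Chdh, -0.03 for Aldh7a1 and 0.14 for Slc44a1. No p was computed for these values, and a matching GC score was not removed.

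Promoters are shown for 4 genes, the opposed pairs Pemt and Sardh and Chdh and Pcyt1a, picked after their values had been seen. The sequences are RefSeq windows of 300 bases, from 250 before to 50 after the first start listed in the table (build GRCm38.p6), read 5′ to 3′ on the strand of the gene. Capitals mark the GC box GGGCGG and the CCAAT box, on either strand. TATAAA and CACGTG were searched on both strands too, and neither is in these 4 windows. The windows lie at chr11:60040139-60040438 on the minus strand for Pemt, chr2:27247254-27247553 on the minus strand for Sardh, chr14:30008750-30009049 on the plus strand for Chdh and chr16:32430671-32430970 on the plus strand for Pcyt1a.
Pemt: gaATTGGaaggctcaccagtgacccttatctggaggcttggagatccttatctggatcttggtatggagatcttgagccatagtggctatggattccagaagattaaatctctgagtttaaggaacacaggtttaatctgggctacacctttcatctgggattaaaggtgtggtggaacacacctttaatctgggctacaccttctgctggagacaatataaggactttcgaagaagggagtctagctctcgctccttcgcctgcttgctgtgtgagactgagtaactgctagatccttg
Sardh: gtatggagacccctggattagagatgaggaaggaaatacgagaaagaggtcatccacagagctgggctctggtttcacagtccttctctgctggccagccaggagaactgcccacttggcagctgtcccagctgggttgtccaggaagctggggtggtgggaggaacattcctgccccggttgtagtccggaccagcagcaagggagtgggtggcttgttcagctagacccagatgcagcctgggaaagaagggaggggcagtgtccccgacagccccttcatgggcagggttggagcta
Chdh: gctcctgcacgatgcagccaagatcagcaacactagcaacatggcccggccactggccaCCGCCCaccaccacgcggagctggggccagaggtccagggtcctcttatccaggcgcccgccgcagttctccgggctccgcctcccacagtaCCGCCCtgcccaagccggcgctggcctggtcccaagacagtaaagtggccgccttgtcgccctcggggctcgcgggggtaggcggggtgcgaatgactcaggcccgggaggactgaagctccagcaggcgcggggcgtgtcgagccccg
Pcyt1a: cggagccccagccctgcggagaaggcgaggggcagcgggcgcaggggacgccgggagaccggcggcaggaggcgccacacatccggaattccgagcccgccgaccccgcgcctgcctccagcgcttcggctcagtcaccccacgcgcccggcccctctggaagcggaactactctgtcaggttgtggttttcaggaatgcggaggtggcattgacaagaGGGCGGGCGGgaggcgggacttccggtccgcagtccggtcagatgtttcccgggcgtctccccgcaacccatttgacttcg
Pemt has 2 listed starts, Chdh and Pcyt1a 3 each and Sardh 1, and only the first of each was searched. The Pemt and Sardh windows lie inside the genes as annotated in mm10, whose 5′ ends are at 60046489 and 27248337. Those of Chdh and Pcyt1a hold the annotated gene starts, 30009023 and 32430921. The contrast below therefore depends on the start taken, and the annotated 5′ ends of Pemt and Sardh were not searched. Pemt and Sardh have few CpG pairs in their windows, 3 and 4, and a GC content of 46.3% and 59.0%. Chdh has 26 CpG pairs and 70.3% GC, and Pcyt1a 33 and 69.7%. Over the first-listed windows of 27025 genes the median was 7 CpG pairs and 52.7% GC. GGGCGG is absent from the Pemt and Sardh windows and occurs at 2 positions each in Chdh and Pcyt1a, where those of Pcyt1a overlap. It is in 35.9% of all windows, CCAAT is in 37.9%, TATAAA in 14.2% and CACGTG in 7.24%. The only CCAAT among the 4 windows is in Pemt. Windows were also held for Chka, Chpt1, Slc44a1 and Dmgdh, which have 33, 29, 43 and 25 CpG pairs and at least 2 GC boxes each. A match of letters is a description and not a binding site.

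Levels per kilobase of exon place Pemt well above all other members. Over the 38 livers Pemt averaged 2735 ± 1214 normalized counts per kilobase of exon, followed by Sardh at 419 ± 84.9, Aldh7a1 at 397 ± 55.3 and Dmgdh at 393 ± 82.4. Pcyt1a averaged 189.7 ± 36.9 on the same scale, Chdh 171 ± 58.3 and Slc44a1 129 ± 29.3. The first and last enzymes of the CDP-choline route were lowest, Chka at 48.8 ± 10.0 and Chpt1 at 16.4 ± 5.04. Exon length was summed over all transcripts in GENCODE vM21 (mm10), which lowers genes with many transcripts. For Chka the summed exons have 12024 nt and the longest transcript 4652 nt, while the longest coding transcript has 2549 nt. Levels per length of coding transcript were not computed, so the low place of Chka may depend on the length used. Per kilobase of the longest transcript the order from the second to the eighth gene is partly different: Sardh 504, Aldh7a1 498, Dmgdh 448, Pcyt1a 294, Slc44a1 204, Chdh 187 and Chka 126, between Pemt at 5737 and Chpt1 at 28.2. Of the neighbours in the exon-based order, the ranges over 38 livers were apart only for Pemt and Sardh and for Slc44a1 and Chka. Sardh was above Aldh7a1 in 22 of 38 livers, and Aldh7a1 above Dmgdh in 19 of 38, so those 3 do not differ beyond their spread.

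**Figure D1:**
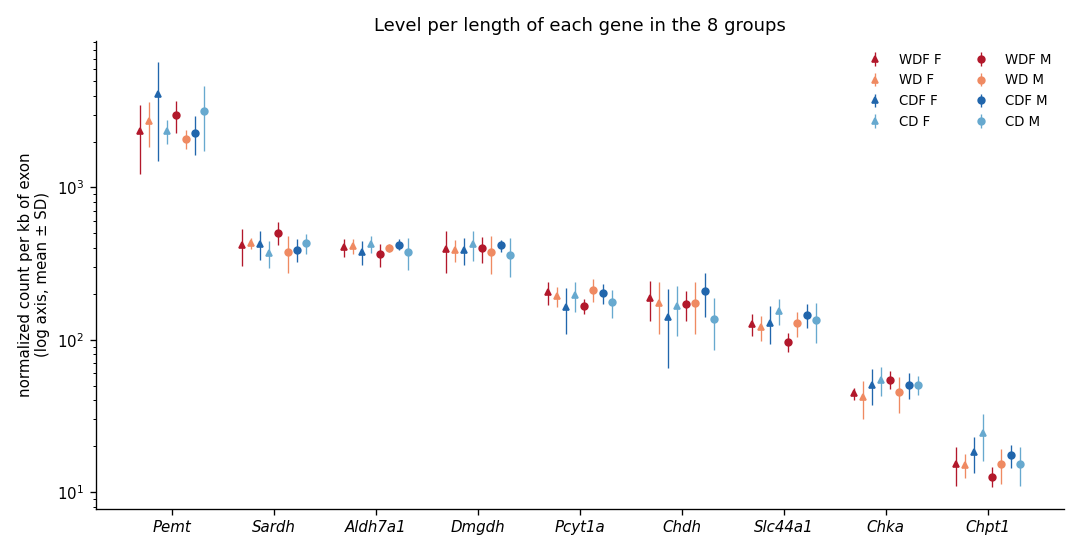
Mean level per kilobase of exon (log axis) of the 9 genes in WDF, WD, CDF and CD females (triangles) and males (circles), with SD over 4 or 5 livers. Pemt is above all others in every group and Chpt1 is lowest in every group.

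The genes of the phosphatidylcholine routes lie at chr11:59970614-60046489 (Pemt, minus strand), chr19:3851773-3894369 (Chka, plus), chr16:32430921-32475070 (Pcyt1a, plus) and chr10:88452745-88504073 (Chpt1, minus) in mm10. The carrier Slc44a1 is at chr4:53440413-53622478 on the plus strand. Chdh is at chr14:30009023-30040527 (plus), Dmgdh at chr13:93674433-93752833 (plus) and Sardh at chr2:27188393-27248337 (minus).

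Slc44a1, which brings choline into the cell, had its lowest group mean in WDF males. Its values there were 579, 582, 691, 704 and 804, against 782, 955, 966, 1053 and 1279 in CDF males, and the groups overlapped only through the highest WDF and the lowest CDF liver. WD males had 686, 821, 889.6, 910.1 and 1129, and CD males 497, 861, 1031, 1061 and 1203. The log2 difference of WDF from CDF males was -0.58 (SE 0.20, 95% interval -0.98 to -0.17, adjusted p = 0.57). Females did not follow the same order: means were 880.4 ± 150.4 in WDF, 837 ± 156 in WD, 900.1 ± 248 in CDF and 1075 ± 205 in CD females (SD, n = 5, 5, 4 and 4). Averaged over both sexes and folic acid doses, the log2 difference of high fat from control fat was -0.24 (SE 0.10, 95% interval -0.45 to -0.033, adjusted p = 0.563). The mean log2 level of the erythroid markers was 13.05 ± 0.17 in WDF males against 12.97 ± 0.18 in CDF males, 13.18 ± 0.32 in WD against 12.93 ± 0.20 in CD males, 13.17 ± 0.30 in WDF against 12.99 ± 0.17 in CDF females, and 13.17 ± 0.31 in WD against 12.73 ± 0.20 in CD females (SD). The erythroid mean log2 level was thus higher with high fat in all 4 strata, with mean ± SD ranges that overlap in each. Summed erythroid counts averaged 715118 against 577504, 747542 against 773937, 728714 against 1124900 and 879146 against 501382 in the same pairs. By sums, WD males and WDF females were thus lower than their controls, and CDF female 4 had the highest sum, 2563320. The mean log2 level of the hepatocyte markers was 15.84 ± 0.16 against 15.84 ± 0.10, 15.68 ± 0.37 against 15.85 ± 0.22, 15.78 ± 0.25 against 15.84 ± 0.13 and 15.69 ± 0.28 against 15.88 ± 0.22 in the same pairs. With the erythroid mean as a covariate the Slc44a1 difference averaged over strata was -0.12 (adjusted p = 0.638), and with the hepatocyte mean -0.15 (adjusted p = 0.593). The WDF from CDF male difference was -0.54 and -0.57 with the same covariates and -0.37 with length and GC scores. With library weights that difference was -0.64 (adjusted p = 0.0178), and the difference averaged over strata was -0.36 (adjusted p = 0.00464).

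Chka, the kinase that traps choline in the cell, averaged 534 ± 49.5 in WDF, 504 ± 142 in WD, 609.6 ± 165 in CDF and 653 ± 138 in CD females, and 656 ± 87.9, 543 ± 146, 606 ± 116 and 609 ± 86.3 in males of the same diets (SD, n = 4 in CDF and CD females and 5 elsewhere). Its smallest unadjusted p was that of WD against CD females, a log2 difference of -0.39 (adjusted p = 0.662), which was -0.21 with the erythroid mean as a covariate. The lowest WD females had 359 and 376, while the CD females reached 768, and the groups overlapped.

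Pcyt1a, the regulated enzyme of the CDP-choline route, varied with no consistent order of diets. It averaged 1234 ± 137 in WDF males, against 1581 ± 272 in WD males, 1494 ± 231 in CDF males and 1303 ± 274 in CD males (SD, n = 5 each). In WDF males the 5 values were 1069, 1105, 1296, 1347 and 1356, against 1355, 1383, 1486, 1664 and 2018 in WD males. The groups met at the top of WDF and the bottom of WD, with a log2 difference of -0.35 (SE 0.18, 95% interval -0.72 to 0.021, adjusted p = 0.593), and -0.22 with the length score as a covariate. In females the means were 1514 ± 271 for WDF, 1430.0 ± 217 for WD, 1213 ± 405 for CDF and 1448 ± 317 for CD (SD, n = 5, 5, 4 and 4).

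Chpt1, the last enzyme of the CDP-choline route, was the only member whose libraries were apart in any of the 8 pairwise comparisons. WD females had 96.1, 111, 127, 143 and 150.4, against 160.1, 171, 175 and 306 in CD females, so all 5 WD livers were below all 4 CD livers. The log2 difference was -0.65 (SE 0.24, 95% interval -1.14 to -0.17, adjusted p = 0.662). Groups did not overlap for 2.56% of all genes in that comparison, a background the single member should be read against. For the other pairs the share of genes without overlap was 0.735% (WDF against CDF females), 1.5% (WD against CD males), 2.08% (WDF against CDF males), 0.306% (WDF against WD females), 2.75% (CDF against CD females), 2.52% (WDF against WD males) and 0.722% (CDF against CD males), with 0 of 9 members in each.

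The highest Chpt1 value, 306 in CD female 5, comes from the library with the most lung and heart transcripts of the 38. The 12 lung markers summed to 274 to 3417 in WD females and 337 to 43545 in CD females, with none at 0 in either group, and the 6 heart markers summed to 49.3 to 153 in WD and 62.4 to 15616 in CD females. The left-out lung-like libraries, CDF female 5 and CD female 4, had 657 and 749 normalized counts of Chpt1. Without CD female 5 the log2 difference of WD from CD females was -0.44 (SE 0.25, adjusted p = 0.653). The 11 erythroid markers in the table summed to 486403 to 1230970 in WD females and 378589 to 601385 in CD females, and with the mean of those markers as a covariate the difference was -0.34 (adjusted p = 1.00). The part of these markers in the result was not tested further. In males the values were 84.7, 101, 103, 109 and 128 in WDF, against 108, 141, 144, 154 and 178 in CDF livers, a log2 difference of -0.45 with an adjusted p of 0.711. Between WD and CD males the log2 difference was 0.0012, with a 95% interval of -0.46 to 0.46. Averaged over the 4 strata, Chpt1 was 121 ± 27.4 in 20 high-fat livers and 155 ± 48.7 in 18 control-fat livers (SD), and the log2 difference was -0.34 (SE 0.12, 95% interval -0.58 to -0.11, adjusted p = 0.37). It was -0.17 (adjusted p = 0.587) with the erythroid mean as a covariate, -0.31 (adjusted p = 0.0484) with library weights and -0.55 (adjusted p = 0.369) with all 40 libraries.

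Pemt, the methylation route, had the widest spread of the 9 genes. Its values were 1709.7, 4330.4, 4772, 5578 and 8281 in WDF females and 3492, 4764, 5165, 7356 and 8159 in WD females. In CDF females they were 4764, 5136, 7997 and 16487, and in CD females 4079, 4538, 4993 and 6209. Males had 5005, 5199.6, 5825, 6677 and 8654 in WDF and 3805, 4046, 4190.3, 4547 and 5439 in WD livers. The values were 3468, 3657, 4337, 6127 and 6414 in CDF males and 4662, 5148, 5505, 6120.2 and 12036 in CD males. Every group overlapped every other that it is compared with. The 2 highest livers, CDF female 4 with 16487 and CD male 4 with 12036, stand apart from the other 36, whose highest was 8654, and the lowest, WDF female 2, had 1709.7. WDF females differed from CDF females by -0.78 (SE 0.34, 95% interval -1.47 to -0.092, adjusted p = 0.532). Without CDF female 4 that difference was -0.40 (SE 0.33, adjusted p = 1.00), and without WDF female 2 it was -0.44 (SE 0.31, adjusted p = 0.691).

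**Figure D2:**
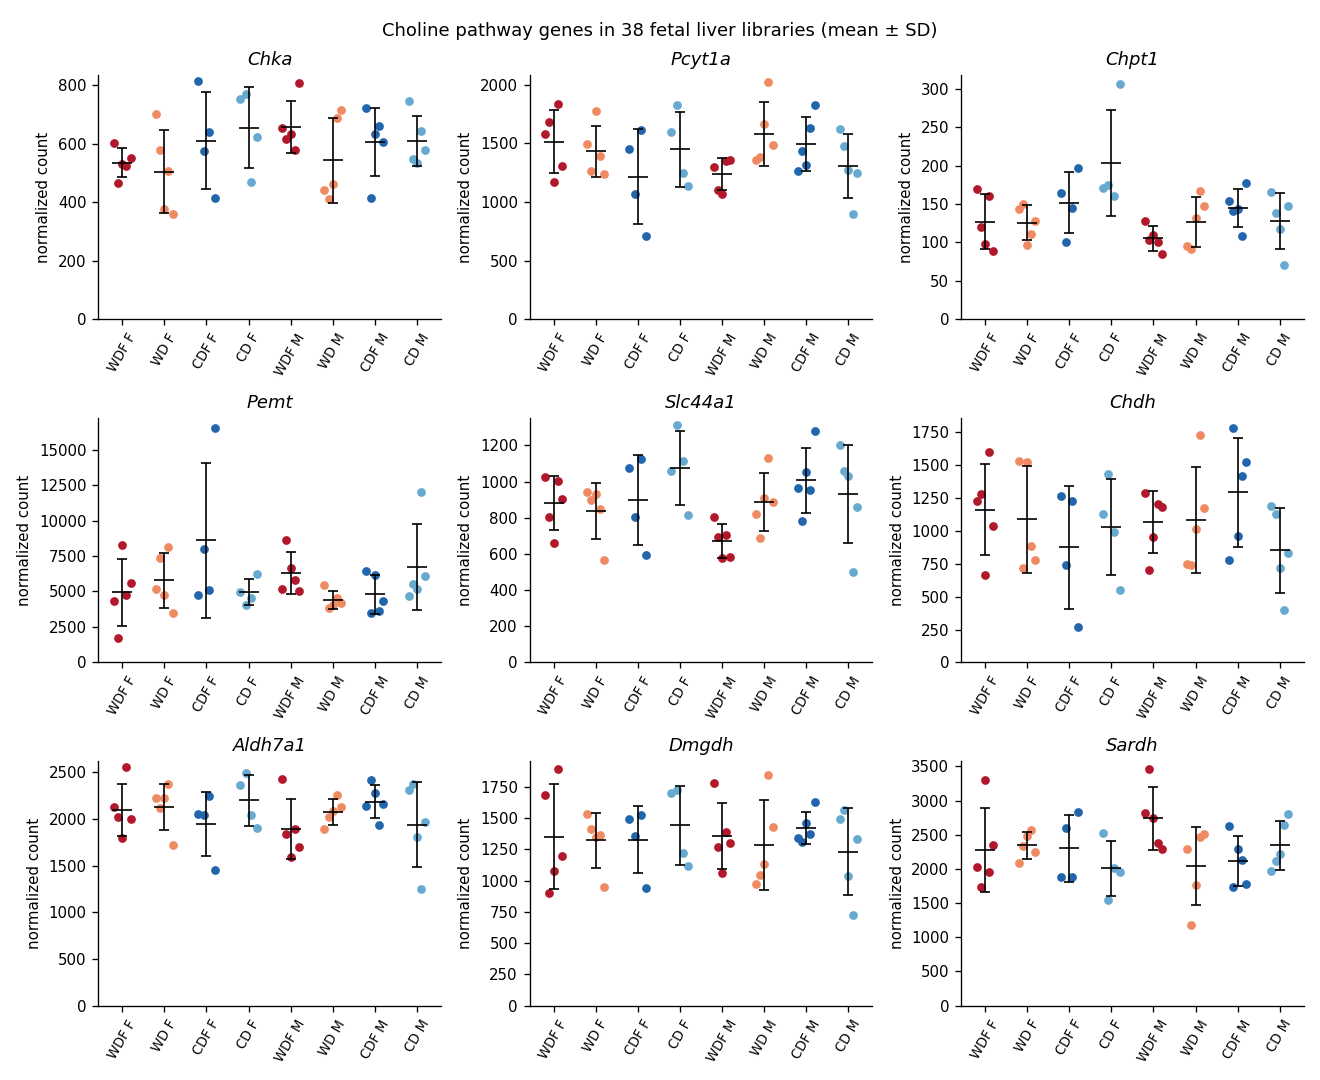
Normalized counts of each gene in 38 fetal livers (points), with mean and SD as black bars, by diet and sex from WDF to CD females and then males. Groups overlap for nearly all genes, and single livers such as Pemt at 12036 in CD males lie far from their group.

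Chdh, which starts choline oxidation, was nearly as variable as Pemt and opposite to it. Values were 666, 1041, 1225, 1283 and 1598 in WDF and 716, 781, 887, 1527 and 1534 in WD females, and 273, 737, 1229 and 1262 in CDF and 553, 993, 1131 and 1436 in CD females. In males they were 703, 952, 1183, 1204 and 1285 in WDF and 742, 747, 1015, 1177 and 1726 in WD livers. CDF males had 778, 962, 1421, 1526 and 1783 and CD males 396, 718, 829, 1127 and 1189. The lowest livers of all were CDF female 4 with 273 and CD male 4 with 396, the same 2 that were highest in Pemt. The largest difference by size was CDF from CD males, 0.64 (SE 0.35, 95% interval -0.076 to 1.35, adjusted p = 0.908). Without CD male 4 it was 0.39 (SE 0.35, adjusted p = 1.00), with library weights 0.40 and with the length score 0.40. Aldh7a1, which finishes betaine formation, had the narrowest spread: 1244 to 2553, with a coefficient of variation of 13.9% over 38 livers, against 44.4% for Pemt and 34.2% for Chdh. Its group means ran from 1890.2 ± 324 in WDF males to 2201 ± 272 in CD females (SD, n = 5 and 4). Its log2 difference of high from control fat over the strata was -0.0053 with a 95% interval of -0.16 to 0.14.

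Dmgdh and Sardh, the demethylases that feed one-carbon units to folate, showed no difference between folic acid doses that passed the test with equal library weights. Dmgdh averaged 1353 ± 421 in WDF, 1325 ± 220.5 in WD, 1328 ± 269 in CDF and 1442 ± 319.5 in CD females, and 1360.3 ± 264, 1287 ± 359, 1423 ± 129.6 and 1231 ± 348 in males of the same diets (SD, n = 4 in CDF and CD females and 5 elsewhere). High against ordinary folic acid gave a log2 difference of 0.059 for Dmgdh, with a 95% interval of -0.16 to 0.28. Sardh had 2295, 2379, 2747, 2818 and 3463 in WDF males, against 1178, 1773, 2298, 2466 and 2508 in WD males. The groups overlapped, since 3 of the 5 WD livers lay above the lowest WDF liver. The log2 difference was 0.46 (SE 0.18, 95% interval 0.087 to 0.83, adjusted p = 0.505), and without WD male 2, the lowest liver, 0.27 (SE 0.17, adjusted p = 0.534). With library weights it was 0.51 (adjusted p = 0.0461). Against CDF males, with 1742, 1783, 2134, 2287 and 2628, the log2 difference of WDF was 0.38 (SE 0.18, 95% interval 0.0021 to 0.75, adjusted p = 0.711), and 0.24 with length and GC scores as covariates. In females Sardh was 1741, 1960.5, 2030.4, 2347 and 3306 in WDF and 2085, 2245, 2331, 2483 and 2577 in WD livers, with a log2 difference of -0.075 (95% interval -0.45 to 0.30). CDF females had 1882, 1888, 2605 and 2832 and CD females 1547, 1952, 2019 and 2522.

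For fat, 0 of 9 members passed in each of the 4 pairwise comparisons and in their average. All genes tested gave 0% called in each pair and 0.0455% (7 of 15377) in the average. At an unadjusted p under 0.05 the members counted 0 of 9 for WD against CD males, where 6.65% of all genes did, 2 of 9 for WDF against CDF males (6.9%), 1 of 9 for WD against CD females (6.57%), 1 of 9 for WDF against CDF females (8.14%) and 2 of 9 for the average (7.5%). The 2 in the average were Chpt1 and Slc44a1, both lower with high fat. The median log2 difference of the 9 genes in the average was -0.03, against -0.00046 over all genes.

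For folic acid, 0 of 9 members passed, and 0% of all genes did in each of the 4 pairs and in their average. At an unadjusted p under 0.05 the counts were 1 of 9 for WDF against WD males, where 8.81% of all genes did, and 0 of 9 for CDF against CD males (3.49%), WDF against WD females (1.44%), CDF against CD females (7.78%) and the average (2.33%). The authors' deposited table of each folic acid comparison also held 0 of 9 members at an adjusted p under 0.05, among 0 genes called for WDF against WD females, 4 for CDF against CD females, 203 for WDF against WD males and 7 for CDF against CD males. Pemt in WDF against WD males had the smallest adjusted p of any member in the authors' deposited table, 0.111, with a log2 fold change of 0.38. Pcyt1a had -0.23 in the same comparison of the authors' deposited table, Slc44a1 -0.26 and Sardh 0.16. The log2 fold changes in the authors' deposited table are shrunk towards 0, so their sizes cannot be set against the log2 differences above. Over all genes of that comparison their median size was 0.0286.

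**Figure D3:**
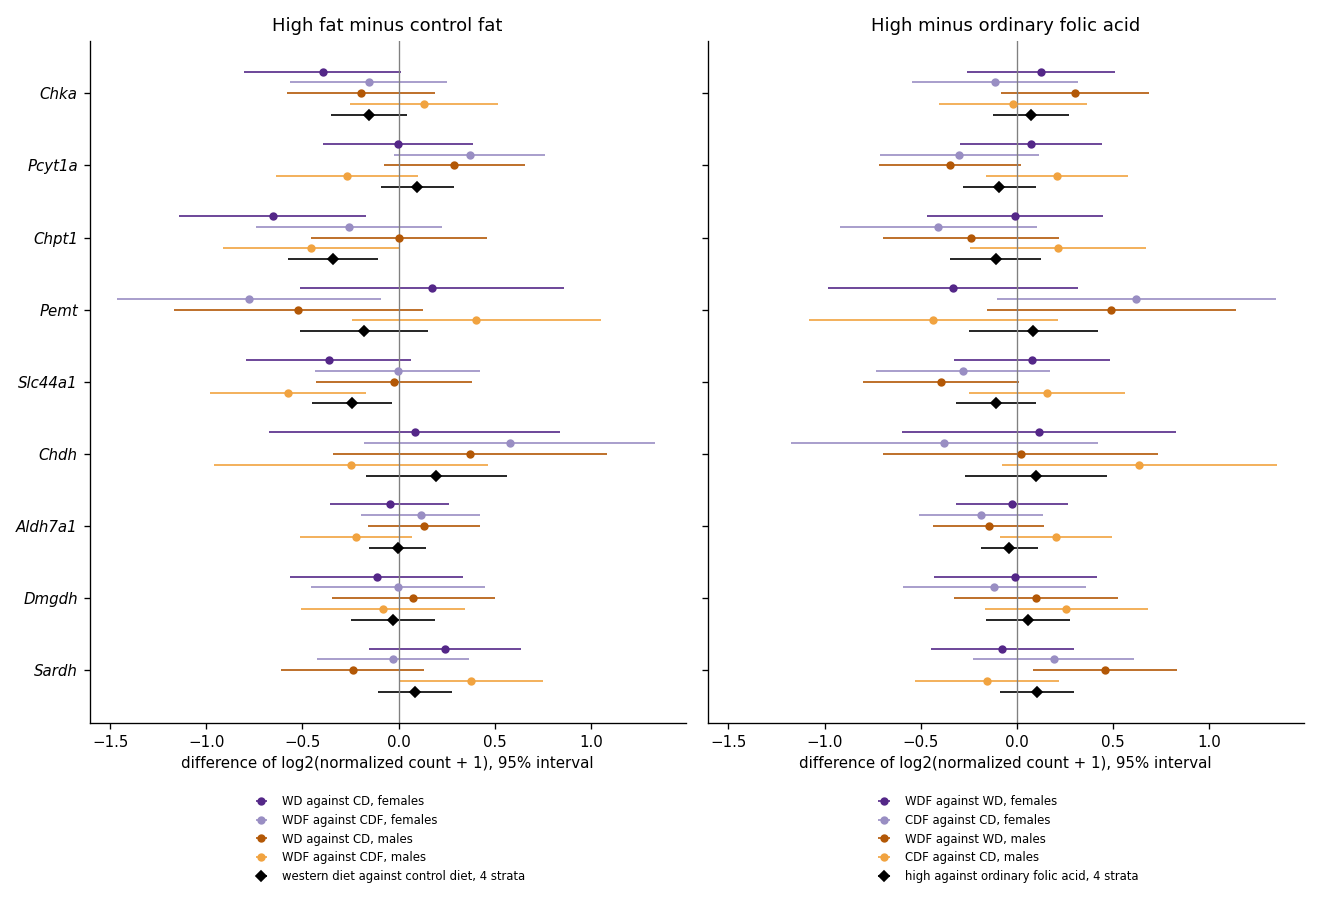
Log2 differences with 95% intervals of the 9 genes for high minus control fat (left) and high minus ordinary folic acid (right), in females and males at each level of the other factor, with the average over 4 strata as black diamonds. Intervals for most genes span 0, and the average for Chpt1, at -0.34, lies below it without passing the adjusted test.

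Between females and males 0 of 9 members passed, against 9 genes or 0.0585% of all genes tested. At an unadjusted p under 0.05 there was 1 member, Chpt1, against 3.1% of all genes. Chpt1 averaged 149 ± 50.4 in 18 females and 126 ± 29.9 in 20 males (SD), a log2 difference of 0.24 (SE 0.12, 95% interval 0.0028 to 0.47, adjusted p = 0.999). Without the 4 libraries highest in the lung gene Sftpc it was 0.15, and with all 40 libraries 0.44. The other 8 log2 differences between females and males ran from -0.082 to 0.088.

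Whether the response to folic acid differed between the fat levels was tested as a difference of differences. In males 0 of 9 members passed, as did 0% of all genes, and 3 of 9 had an unadjusted p under 0.05, against 12.3% of all genes. Pemt had 0.93 (SE 0.45, 95% interval 0.0084 to 1.84, adjusted p = 0.403) for the folic acid difference at high fat minus that at control fat: the log2 difference was 0.49 for WDF against WD and -0.43 for CDF against CD. Sardh had 0.61 (SE 0.26, 95% interval 0.087 to 1.14, adjusted p = 0.371), and Pcyt1a, of opposite sign, -0.56 (SE 0.26, 95% interval -1.08 to -0.037, adjusted p = 0.391). With length and GC scores as covariates these values were 0.36 for Pemt, 0.35 for Sardh and -0.25 for Pcyt1a. In females 0 of 9 passed (0% of all genes) and 0 of 9 had an unadjusted p under 0.05 (12.9%), and Pemt had a difference of -0.95 with the opposite sign to males, which was -0.58 without CDF female 4, -0.61 without WDF female 2 and -0.28 with the length score as a covariate. Tested for a difference between females and males, the fat response gave 0 of 9 members past the adjusted and the unadjusted threshold, where 0% and 1.18% of all genes passed. The folic acid response likewise gave 0 of 9 at both, against 0% and 1.07%.

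Of 46 other genes of these routes that are in the table, among them transporters, ethanolamine enzymes, betaine users and phospholipases, 0 passed in any of the 15 comparisons. The 3 with the smallest unadjusted p for high against control fat were Phospho1, a phosphocholine phosphatase (0.33, adjusted p = 0.277), Slc44a5 of the choline transporter-like family (0.69, adjusted p = 0.563) and Slc6a20a, an amino acid carrier (0.36, adjusted p = 0.627), as log2 differences. Phospho1 averaged 705 ± 147 in high-fat and 567 ± 126 in control-fat livers (SD). For high against ordinary folic acid the 3 were Slc44a5 (-0.43, adjusted p = 1.00), Chkb, another choline and ethanolamine kinase (0.17, adjusted p = 1.00), and Slc44a4 (-0.14, adjusted p = 1.00). For females against males the 3 included Abcb4, the canalicular phosphatidylcholine exporter (-0.16, adjusted p = 0.999) and Ptdss2, a phosphatidylserine synthase (0.13, adjusted p = 0.999).

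Several members varied together over the libraries. Over the 38 livers, 22 of the 36 pairs of members correlated at a Benjamini-Hochberg adjusted permutation p under 0.05, 15 positively and 7 negatively, with 100000 permutations, whose smallest possible p is 1e-05 before adjustment. The share among pairs of all genes tested was not computed, so this count has no background to be read against. Pcyt1a and Chdh, which act on choline by different routes, had r = 0.88, rho = 0.82, adjusted p = 4e-05 and r = 0.79 without the 2 most distant livers. Aldh7a1 and Dmgdh, both mitochondrial, had r = 0.81, rho = 0.80, adjusted p = 4e-05 and r = 0.73 without the 2 most distant livers. Pemt and Sardh had r = 0.64, rho = 0.73, adjusted p = 9e-05 and r = 0.66 without the 2 most distant livers. Pemt ran against Chdh with r = -0.72, rho = -0.65, adjusted p = 4e-05 and r = -0.67 without the 2 most distant livers, and against Pcyt1a with r = -0.75, rho = -0.69, adjusted p = 4e-05 and r = -0.58 without the 2 most distant livers. After group means were removed, the correlations within groups were 0.92 for Pcyt1a and Chdh, 0.85 for Aldh7a1 and Dmgdh, 0.65 for Pemt and Sardh, -0.71 for Pemt and Chdh and -0.68 for Pemt and Pcyt1a. Chka and Chpt1 passed with fewer members than the other genes did. By Pearson's r, Chka passed only with Dmgdh (r = 0.49, rho = 0.52, adjusted p = 0.00419 and r = 0.48 without the 2 most distant livers). By rank it also passed with Slc44a1 (rho = 0.36, adjusted permutation p = 0.048). Chpt1 passed with genes of the second set: Slc44a1 (r = 0.52, rho = 0.60, adjusted p = 0.00177 and r = 0.56 without the 2 most distant livers), Dmgdh (r = 0.42) and Aldh7a1 (r = 0.39).

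**Figure D4:**
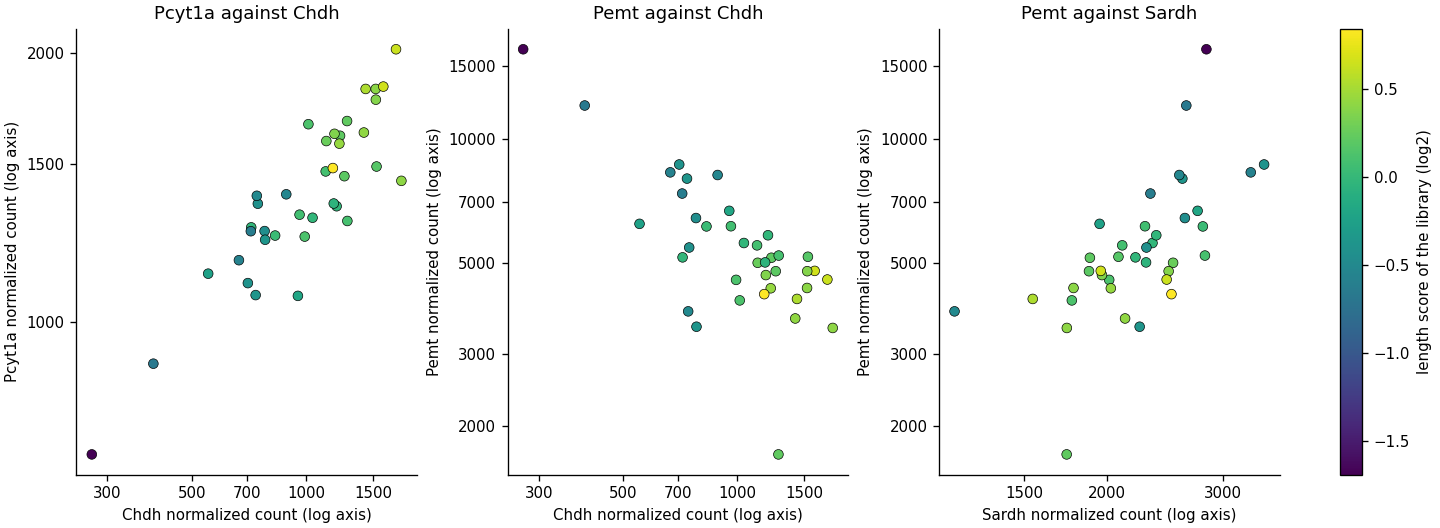
Pcyt1a against Chdh, Pemt against Chdh and Pemt against Sardh in 38 livers (normalized counts, log axes), coloured by the length score of each library. Pcyt1a rises with Chdh, Pemt falls with Chdh and rises with Sardh, and the darkest point, CDF female 4 with a score of -1.69, has the highest Pemt and the lowest Chdh.

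Values of a whole-library measure move with these sets. A length score was taken per library as the median log2 deviation (from each gene's mean over libraries) of genes whose longest coding transcript is over 5000 nt, minus that of genes with transcripts under 1500 nt, and it ran from -1.69 in CDF female 4 and -0.67 in CD male 4 to 0.84. It was chosen after the correlations had been seen. Of 36 relations of 4 library measures with the 9 genes, adjusted together, those of the length score were positive with Chdh (r = 0.89, rho = 0.86, adjusted p = 3.27e-05, r = 0.87 without the 2 most distant livers), Pcyt1a (r = 0.85, rho = 0.81, adjusted p = 3.27e-05, r = 0.81 without the 2 most distant livers), Slc44a1 (r = 0.64, rho = 0.64, adjusted p = 6e-05, r = 0.66 without the 2 most distant livers), Aldh7a1 (r = 0.64, rho = 0.61, adjusted p = 0.000138, r = 0.58 without the 2 most distant livers) and Dmgdh (r = 0.64, rho = 0.65, adjusted p = 3.27e-05, r = 0.64 without the 2 most distant livers), and negative with Pemt (r = -0.71, rho = -0.71, adjusted p = 3.27e-05, r = -0.60 without the 2 most distant livers) and Sardh (r = -0.36, rho = -0.48, adjusted p = 0.0397, r = -0.38 without the 2 most distant livers). By the transcript length used for the score, Chdh has one of the longer transcripts, 5690 nt, and Pemt one of the shortest, 1003 nt, at percentiles 85.9 and 9.41 of all genes. Sardh, which ran with Pemt, has 4521 nt, and Dmgdh has 2992 nt. The GC content of these transcripts is 56.9% for Sardh and 54.9% for Pemt, at percentiles 85.3 and 76.0 of all genes. A GC score per library, made in the same way from genes with a GC content above 54.7% and below 45.3%, correlated with those 7 genes with opposite sign, at -0.81 for Chdh, 0.74 for Pemt and 0.54 for Sardh, and also with Chpt1 (r = -0.45, adjusted p = 0.00792). With the length score, but not the GC score, removed from each gene, the median size of the 36 correlations was 0.273, against 0.403 before. Pcyt1a and Chdh then had r = 0.51, Aldh7a1 and Dmgdh 0.68, Pemt and Sardh 0.59, Pemt and Chdh -0.26, and Pemt and Pcyt1a -0.39. Pemt with Slc44a1 turned to 0.14, against -0.38 before, Pemt with Aldh7a1 was -0.03, against -0.47, and Pemt with Dmgdh was 0.45, against -0.21. No p was computed for the correlations after the length score was removed. The part of library preparation or RNA quality in these values was not tested. The mean of the hepatocyte markers correlated positively with 6 genes at an adjusted p under 0.05: Dmgdh (r = 0.80, rho = 0.83, adjusted p = 3.27e-05, r = 0.80 without the 2 most distant livers), Chka (r = 0.60, rho = 0.53, adjusted p = 0.00018, r = 0.46 without the 2 most distant livers), Aldh7a1 (r = 0.58, rho = 0.70, adjusted p = 0.0006, r = 0.62 without the 2 most distant livers), Slc44a1 (r = 0.57, rho = 0.57, adjusted p = 0.000652, r = 0.49 without the 2 most distant livers), Chdh (r = 0.45, rho = 0.45, adjusted p = 0.00792, r = 0.45 without the 2 most distant livers) and Chpt1 (r = 0.35, rho = 0.47, adjusted p = 0.0434, r = 0.33 without the 2 most distant livers). That of the erythroid markers correlated negatively with 4: Chpt1 (r = -0.55, rho = -0.53, adjusted p = 0.000741, r = -0.55 without the 2 most distant livers), Dmgdh (r = -0.44, rho = -0.45, adjusted p = 0.00878, r = -0.36 without the 2 most distant livers), Chka (r = -0.44, rho = -0.46, adjusted p = 0.0108, r = -0.29 without the 2 most distant livers) and Slc44a1 (r = -0.43, rho = -0.42, adjusted p = 0.0111, r = -0.33 without the 2 most distant livers).

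**Figure D5:**
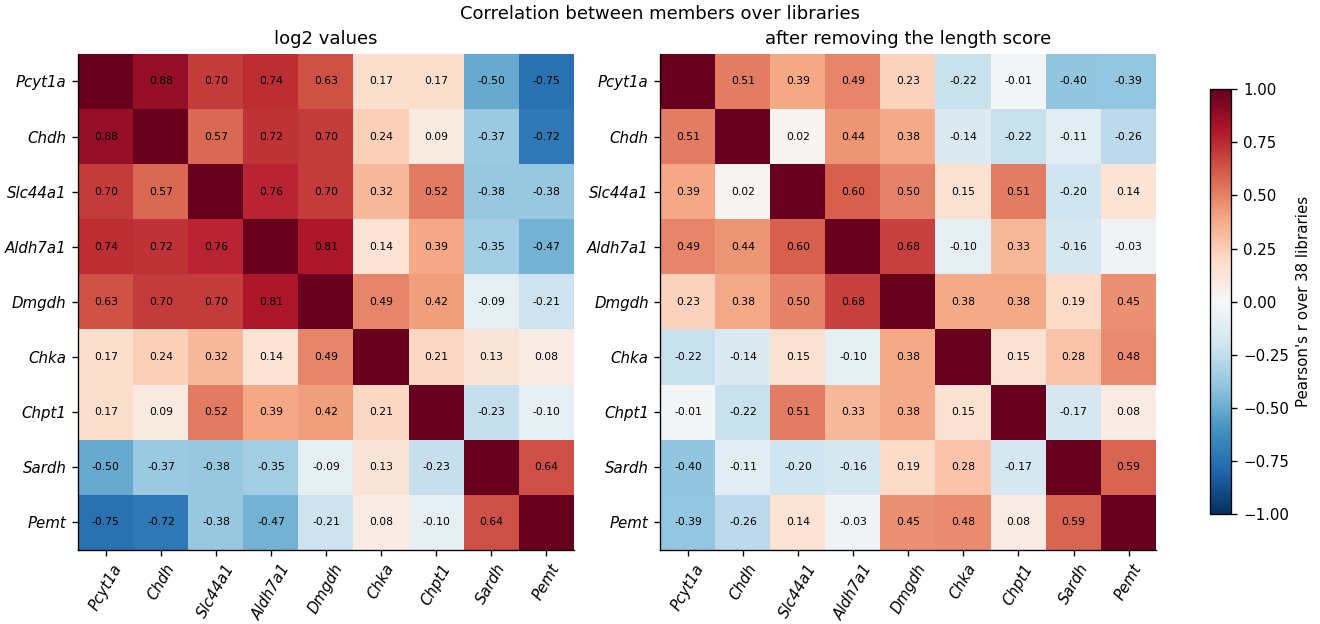
Pearson correlations between the 9 genes over 38 livers as measured (left) and after the length score was removed (right). The block of Pcyt1a, Chdh, Slc44a1, Aldh7a1 and Dmgdh is positive on the left and weaker on the right, where Slc44a1 with Chdh is near 0 at 0.017, and Pemt with Sardh stays positive at 0.59.

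For each member the 2 genes most alike over the 38 livers were found by Pearson's r. Pemt was nearest to Fcgrt, the neonatal Fc receptor (r = 0.93), and Asl, a urea cycle enzyme (r = 0.92). Chdh was nearest to H6pd (r = 0.95) and Papss2 (r = 0.94), and Slc44a1 to Echdc1 (r = 0.92) and Rab5b (r = 0.90). Trim14 was among the 2 nearest to Pcyt1a (r = 0.92), and Rsph4a among those nearest to Chka (r = 0.73). Aldh7a1 was nearest to Alb, the main plasma protein of liver (r = 0.88), and Hadha (r = 0.87), and Dmgdh to Aldh8a1 (r = 0.92) and Gm5096 (r = 0.90). Sardh was nearest to Pnpla7 (r = 0.74) and Tap2 (r = 0.74), and Chpt1 to Tmem243 (r = 0.79) and Cavin2 (r = 0.76).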

How the data were processed

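Per the labels' protocols, 1 microgram of liver RNA per mouse was made into directional, poly(A)-selected libraries and read as paired ends of 43 nt. Per the submitters' processing notes, Trimmomatic 0.39, STAR 2.7.3a, Salmon 1.3.0 and DESeq2 1.24 were used with mm10, and the settings are not stated in the labels. The deposited values are a signal scale: read counts that the authors had divided by size factors, since recomputed median-ratio factors were 1.01 in all 40 libraries. Whole reads could not be recovered, because only 26.8 to 57.8% of low values per library were whole multiples of a step (tolerance 0.1). Depth in reads is therefore unknown, and precision rests on the spread between libraries. The authors' 4 tables give log2 fold changes and p-values for folic acid, as deposited. One column of the counts table is titled differently from its sample and was assigned to CDF female 1 as the only sample left.

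Here, log2(value + 1) was fitted with limma 3.58.1 (R 4.3.3) with 1 mean for each of 8 groups over 38 libraries, with a mean-variance trend and robust moderation. Genes at 10 or more in at least 5 libraries (15377) were tested, two-sided, with Benjamini-Hochberg adjustment over all of them and a threshold of 0.05. Fold changes on this scale understate those of low genes. The fit was also run on simulated data in which genes varied independently of each other, and no result here rests on that run. Correlations used Python 3 with numpy and scipy. All 9 members and the 3 pathway genes with the smallest p in each pooled comparison are named, as fixed with the test design. A few genes that these rules pick are not reported here. The members and lists were chosen with earlier results of these data known. Replicate numbers were not used as pairs: on average, deviations correlated at -7.3e-05 between libraries of the same number (126 pairs) and 0.0022 between others (505 pairs). For 13 of 38 libraries the best match in another group had the same number. The share to be expected without pairing was not computed. Alternatives tried were scaling, pseudocounts of 0.5 and 5, filters, moderation, library weights, covariates, fewer groups, all 40 libraries, a replicate block and leaving out each library in turn.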

Additional observations from a re-analysis of the deposited data

Results flagged for a closer look

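Of 72 sets of 4 or 5 livers (9 genes in 8 groups), 3 had a library far from the others, and chance alone flags about 1 in 20 sets. Pemt was 12036 in CD male 4, against 4662 to 6120.2 in the other 4 CD males. Slc44a1 was 565 in WD female 5, against 849 to 942 in the other 4 WD females. Chpt1 was 306 in CD female 5, against 160.1 to 175 in the other 3 CD females analysed.

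Chpt1 was also high in the libraries left out of every comparison, at 657 in CDF female 5 and 749 in CD female 4, above the highest of the 38 analysed libraries (306). The same libraries carry lung markers, as described above. No test of a difference of differences passed the threshold for any member.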

How the results depend on the processing

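A difference smaller than its own SE was taken to have no direction, a rule set after seeing how many signs changed: signs changed in 131 of 5130 member values when 1 library was left out and in 143 of 2115 under the other settings. With library weights, genes called numbered 145 (WD against CD males), 241 (WDF against CDF males), 621 (WDF against WD males), 486 (fat, averaged) and 397 (folic acid by fat in males), and members called numbered 1 (Slc44a1, WDF against CDF males), 1 (Sardh, WDF against WD males) and 2 (Chpt1 and Slc44a1, fat averaged). The count for fat averaged was 7, and became 22 at a threshold of 0.1, 3 with all 40 libraries, 11 without the 4 libraries highest in Sftpc, 11 with a pseudocount of 5, 16 with the erythroid score, 14 with the hepatocyte score, 71 with the length score and 86 with length and GC scores. WD against CD males gave 1 gene with the erythroid score, with the length score and with both length and GC, and WD against CD females gave 1 with the compared groups alone. Members passed in none of these besides library weights. Leaving out 1 library gave 3 to 53 genes for fat averaged, 0 to 8 for WDF against CDF males, 0 to 2 for WDF against WD males, and 0 to 1 in the other pairs that changed. The cause was not tested.

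Differences that changed sign were Pemt with all 40 libraries (WDF against CDF females 0.76, fat averaged 0.54), Pcyt1a and Chdh for fat averaged with library weights (-0.019 and -0.058), and several with length-based covariates: Chdh for WDF against CDF females (-0.048 and -0.024), Pcyt1a for CDF against CD females (0.000297), Chdh for folic acid by fat in males (0.044), and, for folic acid by fat in females, Pcyt1a (-0.0999 and -0.115) and Slc44a1 (-0.065 and -0.098). Leaving out WDF female 2 turned Pemt for WDF against WD females to 0.0082, in a range of -0.56 to 0.0082 over the libraries left out. With the replicate block the fat average called 7 genes, all of them among the 7 without it, the sex comparison 8, all among the 9 without it, and all others 0, with 0 members; 13 of 38 libraries matched their own number best.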

Other observations

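In the lung-like libraries CDF female 5 and CD female 4, which enter no comparison, Pemt and the oxidation and demethylation genes were low: Dmgdh had 6.46 and 8.89 normalized counts, Pemt 35.2 and 49.0, and Sardh 232 and 259. The lowest of the 38 liver libraries had 724, 1709.7 and 1178 for these genes. Chdh was 123 and 122, below the liver minimum of 273, and Aldh7a1 was 789 and 874, below 1244. Chka (425 and 569), Pcyt1a (1419 and 1701) and Slc44a1 (848 and 1069) lay within the range of the 38 livers.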
